A study of Mus musculus with 12 samples.

Results

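The genes described here are 43 genes of lymphoid cells that were read in bone marrow progenitors, out of 55291 genes in the deposited count matrix. They were taken as a named list of rows of that matrix and fall into 15 B-lymphoid genes, 9 early lymphoid genes, and 19 genes of T and NK cells (T/NK). The B-lymphoid genes are *Cd79a*, *Cd79b*, *Pax5*, *Ebf1*, *Vpreb1*, *Vpreb3*, *Igll1*, *Blnk*, *Cd22*, *Ms4a1*, *Pou2af1*, *Bank1*, *Blk*, *Fcrla*, and *Cd24a*. The early lymphoid genes are *Rag1*, *Rag2*, *Dntt*, *Il7r*, *Tcf3*, *Ikzf1*, *Ikzf3*, *Ltb*, and *Lef1*. The T/NK genes are *Cd3d*, *Cd3e*, *Cd3g*, *Cd247*, *Cd2*, *Cd8a*, *Cd4*, *Trac*, *Lck*, *Tcf7*, *Bcl11b*, *Gata3*, *Gzma*, *Ccl5*, *Klrd1*, *Klrb1c*, *Ncr1*, *Il2rb*, and *Eomes*.

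RNA was sequenced from Lin-cKit+ (LK) bone marrow cells of 12 C57BL/6 mice, with 1 library per mouse and 3 mice of each of 4 genotypes, all 12 months old. WT mice were compared with Kdm6bΔ/+ mice, which lack 1 allele of the H3K27 demethylase gene *Kdm6b*, with Asxl1Y588XTg mice, which express a truncated ASXL1 and were preleukemic, and with Asxl1Y588XTg Kdm6bΔ/+ mice, which carry both changes. The *Kdm6b* allele was deleted by Mx1Cre, a Cre gene whose interferon-responsive promoter is switched on by pI:pC, a double-stranded RNA analog. The methods describe the WT donors of a transplantation experiment as carrying Mx1Cre, but for the sequenced WT and Asxl1Y588XTg mice neither Mx1Cre nor pI:pC treatment is stated, and the promoter of the Asxl1Y588X transgene is not given in the sources used here. LK cells were enriched with magnetic beads, by depletion of cells with mature lineage antigens and selection for cKit, the receptor for stem cell factor, so that the cells read here are a mixture of progenitors.

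Lymphoid development starts from multipotent progenitors that turn on the recombination enzymes RAG1, RAG2, and TdT together with the receptor for IL-7. In the B lineage, the transcription factors E2A (*Tcf3*), EBF1, and PAX5 act in sequence, and pro-B and pre-B cells in the bone marrow assemble a pre-B cell receptor from the immunoglobulin heavy chain, the surrogate light chain (*Igll1* and *Vpreb1*), and the signalling chains CD79A and CD79B. T cells mature in the thymus and NK cells from bone marrow progenitors, and the CD3 chains, NK receptors, and cytotoxic effectors mark cells of these lineages rather than stem cells.

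The libraries held from 14451522 to 23482563 counted reads, and the 43 lymphoid genes held between 0.155% and 0.204% of them. All 43 passed the expression filter, which kept 15825 genes, and 40 of them had counts in all 12 libraries. Normalized counts are counts scaled to the mean library size after TMM correction. The targeted gene *Kdm6b* had normalized counts between 1346 and 1622 in Kdm6bΔ/+ against 1869 to 2372 in WT, and between 1649 and 1909 in Asxl1Y588XTg Kdm6bΔ/+ against 2187 to 2303 in Asxl1Y588XTg. Y-linked transcripts, read from a set of Y chromosome genes, were present in 0 of 3 WT libraries, in Kdm6bΔ/+ libraries 1 and 3, in Asxl1Y588XTg library 2, and in all 3 Asxl1Y588XTg Kdm6bΔ/+ libraries. As defining markers of LK cells, *Kit* lay between 5764 and 7759 normalized counts and *Cd34* between 2045 and 2738. The T cell antigen gene *Cd5* lay between 17.6 and 71.0, and the T cell receptor constant genes *Trbc1* and *Trbc2* lay between 0 and 44.3.

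The upstream DNA of 4 of these genes is shown because *Igll1*, *Rag1*, and *Dntt* had their lowest counts in the same library, whereas *Ncr1* was lowest in another. Each line gives the 250 bases before the first transcription start, 5′ to 3′ on the strand of the gene, from RefSeq on build GRCm38.p6 (mm10), with the E-box CAGCTG in capitals.
Igll1 (chr16:16863986-16864235, minus strand): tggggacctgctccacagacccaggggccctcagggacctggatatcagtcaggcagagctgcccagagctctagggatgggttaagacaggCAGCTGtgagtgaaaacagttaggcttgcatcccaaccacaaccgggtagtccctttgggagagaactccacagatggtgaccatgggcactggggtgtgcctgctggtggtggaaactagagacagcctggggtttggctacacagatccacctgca
Rag1 (chr2:101649533-101649782, minus strand): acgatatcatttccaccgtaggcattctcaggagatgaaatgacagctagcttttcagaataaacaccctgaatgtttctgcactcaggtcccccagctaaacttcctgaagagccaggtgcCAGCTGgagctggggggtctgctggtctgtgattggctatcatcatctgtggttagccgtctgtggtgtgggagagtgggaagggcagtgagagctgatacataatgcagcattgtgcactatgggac
Dntt (chr19:41029025-41029274, plus strand): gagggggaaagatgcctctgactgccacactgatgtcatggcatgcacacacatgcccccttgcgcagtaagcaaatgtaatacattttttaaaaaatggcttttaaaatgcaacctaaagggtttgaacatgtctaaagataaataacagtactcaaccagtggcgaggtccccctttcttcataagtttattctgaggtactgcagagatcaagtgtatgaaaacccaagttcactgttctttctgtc
Ncr1 (chr7:4337465-4337714, plus strand): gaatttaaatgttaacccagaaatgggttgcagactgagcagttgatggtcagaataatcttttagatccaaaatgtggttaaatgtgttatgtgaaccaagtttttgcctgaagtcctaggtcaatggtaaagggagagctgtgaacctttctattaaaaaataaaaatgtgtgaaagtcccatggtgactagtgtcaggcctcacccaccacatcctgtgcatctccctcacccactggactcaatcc
The E-box starts at base −158 in *Igll1* and at −128 in *Rag1*, counted back from the transcription start, and the windows of *Dntt* and *Ncr1* hold no motif of those searched.

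Of the 43 genes, 32 had a window of 250 bases in the table used, and the others were *Ccl5*, *Cd79b*, *Ms4a1*, *Cd2*, *Klrd1*, *Ikzf3*, *Blk*, *Trac*, *Cd24a*, *Il2rb*, and *Cd4*. Each window lies before the transcription start that is listed first for its gene. This need not be the most upstream start, and the windows of *Gata3*, *Vpreb3*, and *Cd22*, among others, lie inside the annotated gene. The 32 windows were searched on both strands for CAGCTG, an E-box bound by E2A, for the EBF1 motif (TCCC, any 2 bases, GGGA), for GAGGAAGT (PU.1), and for CTTTGA (TCF1 and LEF1), none of which overlapped another in these windows. CAGCTG and the EBF1 motif read the same on both strands. CAGCTG was found in 1 of 11 B-lymphoid windows (*Igll1*), 1 of 8 early lymphoid windows (*Rag1*), and 1 of 13 T/NK windows (*Tcf7*), against 12.8% of 27025 windows of all genes. The EBF1 motif was found in 1 of 11 B-lymphoid windows (*Cd22*, at −49) and in 0.788% of all windows. CTTTGA was found in 2 of 13 T/NK windows (*Cd3d* and *Bcl11b*) and in 14.1% of all windows, and GAGGAAGT in 0 of the 32 windows and in 2.44% of all. Some of the 32 windows overlap annotated exons, among them those of *Cd22* and *Bcl11b*, so that not all lie outside the transcribed gene. The window of *Tcf7* overlaps no exon of the annotation used, but its CAGCTG directly follows the letters atgccg and may be coding. These matches describe the letters of the windows and were not tests of binding.

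Levels can be compared between genes only per length, as RPKM, which divides the count by exon length and by library size, here with exon lengths of the GENCODE vM21 annotation of mm10. By the mean RPKM over the 12 libraries, the most abundant were *Cd24a* (307 RPKM), a surface glycoprotein that is also found on erythroid and myeloid progenitors, *Ikzf1* (101), which encodes Ikaros, and *Tcf3* (38.3). *Dntt*, which encodes TdT, followed at 25.2 RPKM and *Cd79b* at 17.1. The factors *Ebf1* (1.91 RPKM) and *Pax5* (2.07) and the recombinase gene *Rag1* (3.62) were lower. Among the T/NK genes the chemokine gene *Ccl5* had the highest level (5.13 RPKM), followed by *Ncr1* (3.74), *Tcf7* (3.24), and *Il2rb* (3.06). The median level was 2.29 RPKM in the B-lymphoid genes, 3.62 in the early lymphoid genes, and 0.975 in the T/NK genes. At the lower end, 6 T/NK genes (*Cd3e*, *Cd3g*, *Cd8a*, *Trac*, *Bcl11b*, and *Gzma*) had mean normalized counts below 20. *Cd3e* and *Cd8a* had 0 counts in WT library 1 and *Gzma* had 0 counts in Asxl1Y588XTg library 2, which at these depths allows up to 3 counts.

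**Figure D1:**
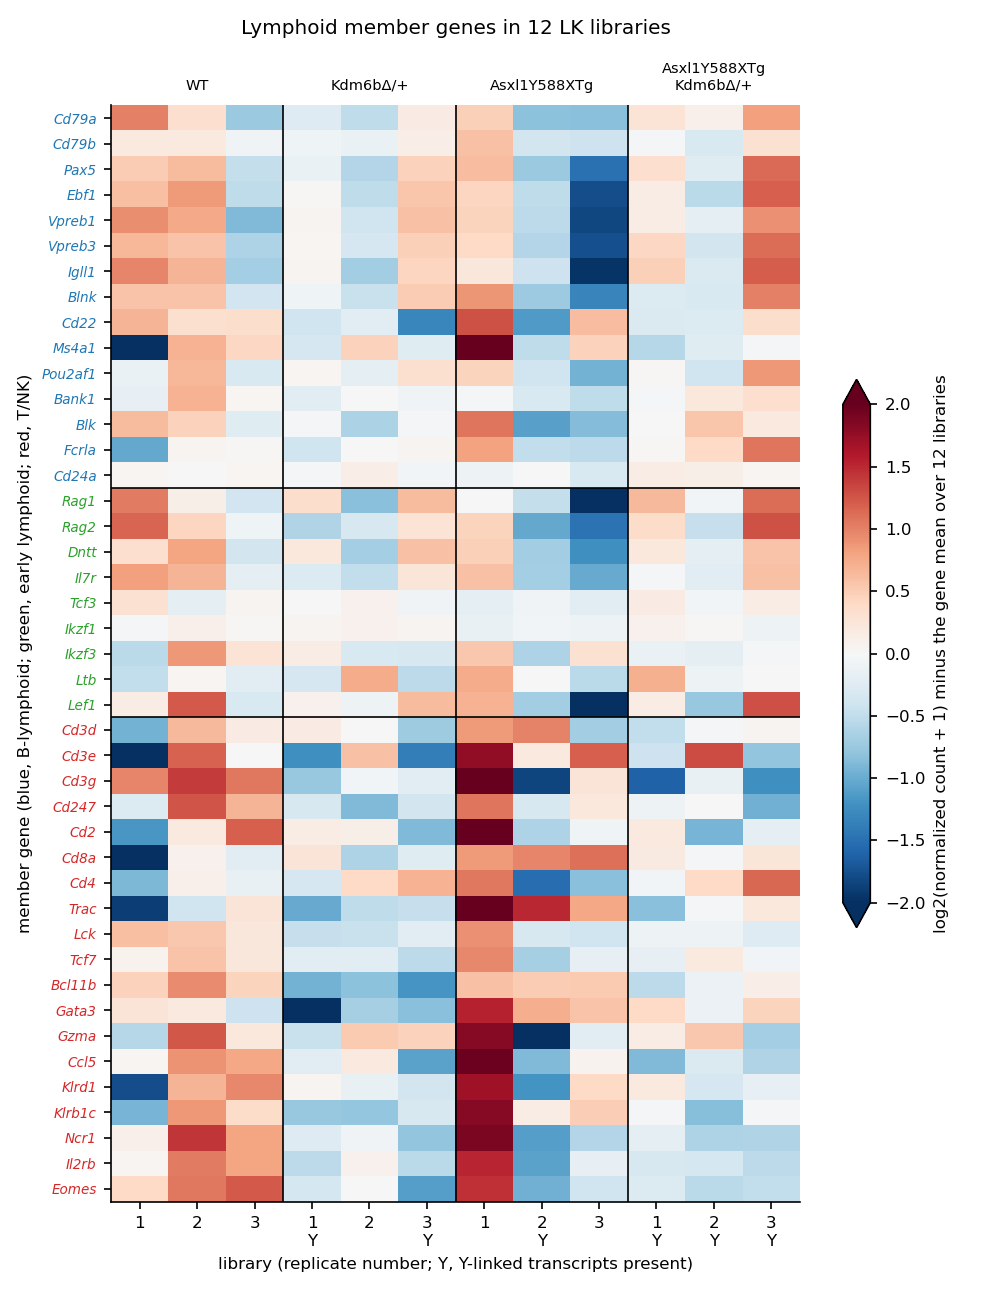
Heat map of the 43 lymphoid genes (rows) in the 12 LK libraries (columns, grouped by genotype, with Y under libraries that have Y-linked transcripts). Color gives log2(normalized count + 1) minus the mean of the gene over the 12 libraries, cut at 2 in each direction. Most B-lymphoid and early lymphoid rows are blue in Asxl1Y588XTg library 3 and red in Asxl1Y588XTg Kdm6bΔ/+ library 3, whereas the T/NK rows are red in Asxl1Y588XTg library 1.

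Mice of 1 genotype differed far more in these genes than in most others. The median SD between the 3 mice of a genotype, on the log2 scale, was 0.72 for the B-lymphoid genes, 0.58 for the early lymphoid genes, and 0.75 for the T/NK genes, against 0.21 for all genes tested. The 3 most abundant genes had an SD below that of most genes, with 0.06 for *Ikzf1*, 0.10 for *Cd24a*, and 0.14 for *Tcf3*. Single libraries stood apart. Asxl1Y588XTg library 3 was the lowest of the 12 libraries for 11 of 15 B-lymphoid and 7 of 9 early lymphoid genes, and Asxl1Y588XTg Kdm6bΔ/+ library 3 was the highest for 7 and 3 of them, where 6.65% of all genes were lowest in the former and 4.77% highest in the latter. Asxl1Y588XTg library 1 was the highest of the 12 for 14 of 19 T/NK genes and for 4 B-lymphoid genes, where 12.5% of all genes were highest, and it lay above the gene's mean for all 19 T/NK genes. The same library was the highest of the 12 for 6 of 9 markers of monocytes and macrophages, among them *C1qb*, a complement gene of macrophages, with 841 normalized counts against at most 296 in the other libraries. Its sum over the 9 markers was 25500.1, against 17670.0 to 24167 in the other libraries, none of the 9 was at 0, and the part of these cells in the T/NK counts of this library was not tested. WT library 1 was the lowest of the 12 for 7 T/NK genes, and for 20.7% of all genes, and the highest for 2 B-lymphoid genes. Asxl1Y588XTg library 3 was the lowest of the 12 for 0 of 19 T/NK genes.

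**Figure D2:**
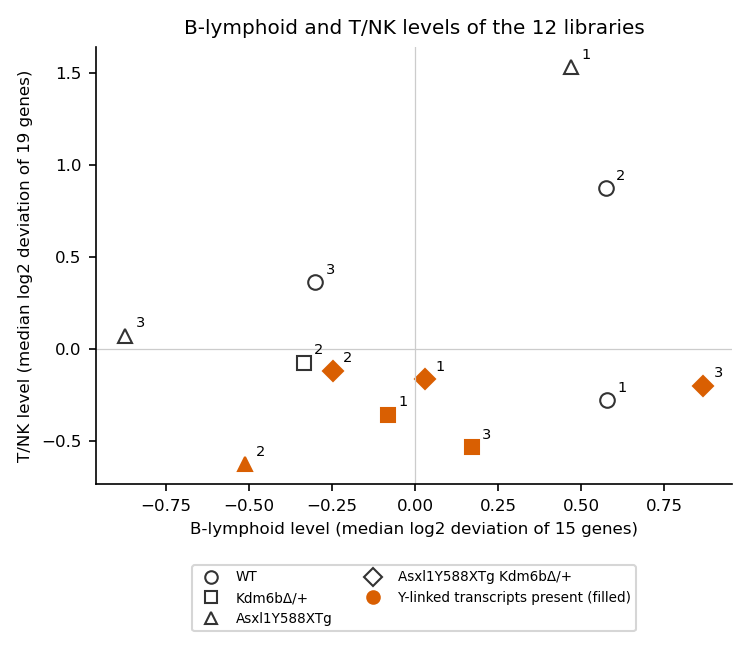
B-lymphoid level (x axis) and T/NK level (y axis) of the 12 libraries, each the median over the genes of the class of log2(normalized count + 1) minus the gene's mean over all libraries. Symbols mark the genotypes, numbers the replicates, and filled symbols libraries with Y-linked transcripts. The B-lymphoid level ran from −0.87 in Asxl1Y588XTg library 3 to 0.87 in Asxl1Y588XTg Kdm6bΔ/+ library 3, and the T/NK level from −0.62 in Asxl1Y588XTg library 2 to 1.53 in Asxl1Y588XTg library 1.

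The genes of pro-B and pre-B cells were present in every library and overlapped between all genotypes. *Pax5*, which commits progenitors to the B lineage, had normalized counts of 409.9, 448, and 206 in WT, 264, 191, and 397 in Kdm6bΔ/+, 442, 173, and 102 in Asxl1Y588XTg, and 365, 245, and 636 in Asxl1Y588XTg Kdm6bΔ/+, in the order of the replicates. *Ebf1*, which acts upstream of *Pax5*, had 440.1, 523, and 203 in WT, 294, 202, and 425 in Kdm6bΔ/+, 387, 202, and 84.1 in Asxl1Y588XTg, and 319, 199, and 665 in Asxl1Y588XTg Kdm6bΔ/+. For both factors the lowest library was Asxl1Y588XTg 3, the highest was Asxl1Y588XTg Kdm6bΔ/+ 3, and the libraries of each genotype spanned a wide range. *Igll1*, which encodes the λ5 chain of the surrogate light chain, had 488, 397, and 155 in WT, 258, 153, and 334 in Kdm6bΔ/+, 291, 187, and 62.8 in Asxl1Y588XTg, and 347, 203, and 576 in Asxl1Y588XTg Kdm6bΔ/+. *Igll1* was chosen after its values were seen. Its lowest and highest libraries were the same as those of *Pax5* and *Ebf1*. Its partner *Vpreb1*, which lies beside it on chromosome 16, ranged from 35.5 to 242, with the caveat that the near-identical gene *Vpreb2* and an exon of *Top3b* on the other strand could share its reads.

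The signalling chains of the B cell receptor had their highest counts in WT library 1 (*Cd79a*) and in Asxl1Y588XTg library 1 (*Cd79b*). *Cd79a* (ENSMUSG00000003379.7 on chromosome 7 from 24897381 to 24902197 of mm10, plus strand) had 409.9, 257, and 121 in WT, 171, 143, and 229 in Kdm6bΔ/+, 283, 115, and 113 in Asxl1Y588XTg, and 246, 219, and 361 in Asxl1Y588XTg Kdm6bΔ/+. *Cd79b* had 483, 481, and 403 in WT, 397, 383, and 461 in Kdm6bΔ/+, 635, 325, and 315 in Asxl1Y588XTg, and 413, 343, and 522 in Asxl1Y588XTg Kdm6bΔ/+. Asxl1Y588XTg library 1 had the highest *Cd79b* count of all, and the other 2 libraries of that genotype had the lowest. *Bank1*, a scaffold protein of B cell signalling, had 151, 274, and 172 in WT, 146, 169, and 161 in Kdm6bΔ/+, 164, 137, and 119 in Asxl1Y588XTg, and 166, 196, and 214 in Asxl1Y588XTg Kdm6bΔ/+, so that all 3 Asxl1Y588XTg Kdm6bΔ/+ libraries lay above all 3 Asxl1Y588XTg libraries. *Cd24a* had 14227, 13880.2, and 14242 in WT, 13510.1, 15163, and 13389.8 in Kdm6bΔ/+, 12883, 13865, and 11288 in Asxl1Y588XTg, and 15458, 15034, and 14266 in Asxl1Y588XTg Kdm6bΔ/+. For this gene too, Asxl1Y588XTg lay entirely below both WT and Asxl1Y588XTg Kdm6bΔ/+, by a small margin.

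*Cd22* and *Ms4a1*, genes of later B cells, were highest in another library than *Pax5*, *Ebf1*, and *Igll1*. *Blk* was highest in the same library as *Cd22* and *Ms4a1*, *Fcrla* in Asxl1Y588XTg Kdm6bΔ/+ library 3, and *Bank1* in WT library 2. *Cd22*, an inhibitory receptor of B cells, had 73.2, 56.8, and 57.8 in WT, 33.9, 38.7, and 17.6 in Kdm6bΔ/+, 111, 20.1, and 69.9 in Asxl1Y588XTg, and 36.9, 37.0, and 57.8 in Asxl1Y588XTg Kdm6bΔ/+, with all 3 Kdm6bΔ/+ libraries below all 3 WT libraries. *Ms4a1*, which encodes CD20 and was chosen after its values were seen, had 6.40, 54.6, and 44.9 in WT, 26.4, 46.6, and 28.0 in Kdm6bΔ/+, 147, 23.1, and 46.6 in Asxl1Y588XTg, and 22.1, 28.0, and 33.0 in Asxl1Y588XTg Kdm6bΔ/+. Asxl1Y588XTg library 1 was the highest for both genes, and WT library 1 had the fewest *Ms4a1* counts although it had the most *Cd79a* counts. Of the remaining B-lymphoid genes, the adaptor *Blnk* ranged from 86.1 to 436, the coactivator *Pou2af1* from 126 to 444, *Vpreb3* from 31.4 to 237, the kinase *Blk* from 12.1 to 57.3, and the Fc receptor-like gene *Fcrla* from 19.2 to 84.6 normalized counts.

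**Figure D3:**
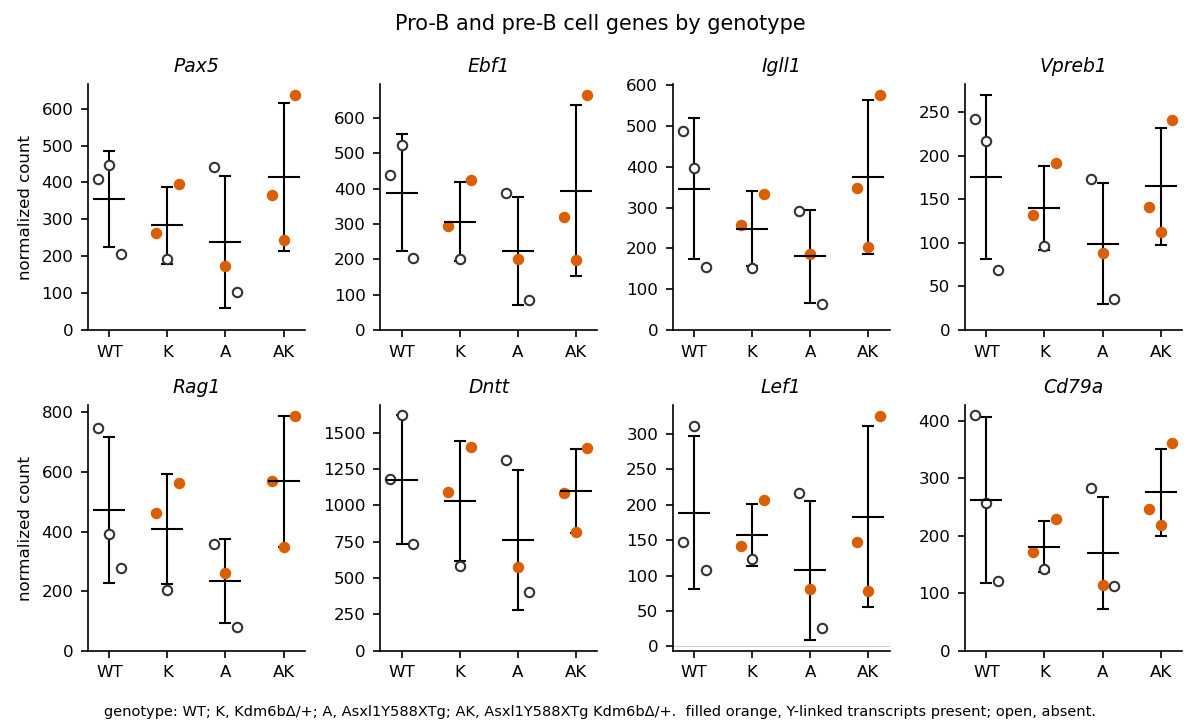
Normalized counts (y axis) of 8 B-lymphoid and early lymphoid genes by genotype (x axis; K, Kdm6bΔ/+; A, Asxl1Y588XTg; AK, Asxl1Y588XTg Kdm6bΔ/+). Each point is 1 mouse, filled where Y-linked transcripts are present, and the line and bars give the mean and SD of 3 mice. In each panel the genotypes overlap, and the highest Pax5, Ebf1, Igll1, Rag1, and Lef1 counts belong to 1 Asxl1Y588XTg Kdm6bΔ/+ mouse.

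The recombination genes were lowest in the same library as the pro-B cell genes. *Rag1* (ENSMUSG00000061311.6 on chromosome 2 from 101638282 to 101649501, minus strand), which with *Rag2* cuts the antigen receptor genes, had 746, 392, and 278 in WT, 462, 202, and 562 in Kdm6bΔ/+, 359, 261, and 81.0 in Asxl1Y588XTg, and 570.2, 347, and 787 in Asxl1Y588XTg Kdm6bΔ/+. *Rag2* had 113, 67.7, and 47.1 in WT, 32.7, 39.7, and 60.2 in Kdm6bΔ/+, 68.4, 24.2, and 17.2 in Asxl1Y588XTg, and 64.9, 36.0, and 122 in Asxl1Y588XTg Kdm6bΔ/+. Both genes share exons with *B230118H07Rik* in the annotation, and no source used here states whether reads were counted by strand, so the split of reads between these genes is uncertain. *Dntt*, which adds nucleotides at the junctions, had 1180.2, 1619, and 732 in WT, 1089.5, 586, and 1404 in Kdm6bΔ/+, 1311, 577, and 402 in Asxl1Y588XTg, and 1084, 817, and 1395 in Asxl1Y588XTg Kdm6bΔ/+. *Il7r*, the IL-7 receptor chain, had 215, 196, and 107 in WT, 101, 86.3, and 144 in Kdm6bΔ/+, 183, 75.5, and 59.8 in Asxl1Y588XTg, and 118, 105, and 184 in Asxl1Y588XTg Kdm6bΔ/+. For these 4 genes Asxl1Y588XTg library 3 was the lowest of the 12. The transcription factors *Tcf3* and *Ikzf1*, which progenitors of many lineages express, were steady, with *Tcf3* between 2347 and 3343 and *Ikzf1* between 9308 and 11038 normalized counts. All 3 Asxl1Y588XTg libraries lay below all 3 Asxl1Y588XTg Kdm6bΔ/+ libraries for *Tcf3* and below all 3 WT libraries for *Ikzf1*. *Ikzf3*, which encodes Aiolos, ranged from 97.6 to 274, the cytokine gene *Ltb* from 162 to 397, and the transcription factor gene *Lef1* from 25.3 to 325.

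The genes of NK cells were highest in Asxl1Y588XTg library 1, and most were lower in both genotypes with the *Kdm6b* deletion than in WT by their means. *Il2rb* (ENSMUSG00000068227.9 on chromosome 15 from 78479256 to 78495271, minus strand), the β chain through which IL-2 and IL-15 signal, had 207, 416, and 349.8 in WT, 139, 213, and 138 in Kdm6bΔ/+, 577, 95.6, and 178 in Asxl1Y588XTg, and 161, 158, and 139 in Asxl1Y588XTg Kdm6bΔ/+. *Ncr1* (ENSMUSG00000062524.4 on chromosome 7 from 4337724 to 4345164, plus strand), the activating NK receptor NKp46, had 87.8, 222, and 141 in WT, 67.9, 77.3, and 46.7 in Kdm6bΔ/+, 305, 37.2, and 53.7 in Asxl1Y588XTg, and 71.6, 53.0, and 53.6 in Asxl1Y588XTg Kdm6bΔ/+. For both genes the 3 Asxl1Y588XTg Kdm6bΔ/+ libraries lay close together and below every WT library, whereas the Asxl1Y588XTg libraries held the highest and the lowest value of the 12. *Eomes*, a transcription factor of NK and cytotoxic T cells, had 43, 68.8, and 77.01 in WT, 25.1, 32.7, and 14.5 in Kdm6bΔ/+, 91.5, 16.1, and 24.3 in Asxl1Y588XTg, and 26.6, 22.0, and 22.7 in Asxl1Y588XTg Kdm6bΔ/+. *Ccl5* had 73.2, 133, and 123 in WT, 61.6, 81.3, and 33.2 in Kdm6bΔ/+, 279.7, 38.2, and 75.0 in Asxl1Y588XTg, and 38.4, 58.0, and 46.4 in Asxl1Y588XTg Kdm6bΔ/+. *Eomes* did not overlap between WT and either genotype with the *Kdm6b* deletion, whereas *Ccl5* did not overlap between WT and Asxl1Y588XTg Kdm6bΔ/+ but overlapped between WT and Kdm6bΔ/+. *Klrb1c*, the receptor NK1.1, had 25.6, 91.8, and 64.2 in WT, 28.9, 28.8, and 39.5 in Kdm6bΔ/+, 177, 55.4, and 69.9 in Asxl1Y588XTg, and 48.7, 27.0, and 48.5 in Asxl1Y588XTg Kdm6bΔ/+, with WT library 1 as the lowest of all. *Klrd1*, which encodes CD94, ranged from 6.40 to 80.5 and the granzyme gene *Gzma* from 0 to 28.2.

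The genes of T cells included *Tcf7* and *Lck*, with mean levels of 3.24 and 2.21 RPKM, and several with few counts. *Lck*, the kinase that starts T cell receptor signalling, had 165, 157, and 127 in WT, 77.9, 79.3, and 93.4 in Kdm6bΔ/+, 204, 86.5, and 82.0 in Asxl1Y588XTg, and 101, 101, and 89.7 in Asxl1Y588XTg Kdm6bΔ/+. *Tcf7*, which encodes the T lineage factor TCF1, had 151, 213, and 167 in WT, 122, 124, and 98.6 in Kdm6bΔ/+, 279, 89.6, and 128 in Asxl1Y588XTg, and 128, 163, and 137 in Asxl1Y588XTg Kdm6bΔ/+. All 3 Kdm6bΔ/+ libraries lay below all 3 WT libraries for both genes. *Gata3*, a transcription factor of T cells and innate lymphoid cells, had 74.1, 71.0, and 46.0 in WT, 13.8, 38.7, and 34.3 in Kdm6bΔ/+, 181, 104, and 92.2 in Asxl1Y588XTg, and 81.9, 57.0, and 84.6 in Asxl1Y588XTg Kdm6bΔ/+, so that Asxl1Y588XTg lay above and Kdm6bΔ/+ below each of the other genotypes without overlap. *Cd247*, the CD3ζ chain, had 15.6, 47.0, and 31.0 in WT, 15.1, 9.92, and 14.5 in Kdm6bΔ/+, 41.2, 15.1, and 22.3 in Asxl1Y588XTg, and 17.7, 18.998, and 9.28 in Asxl1Y588XTg Kdm6bΔ/+. The adhesion receptor *Cd2* ranged from 10.1 to 104, the CD3 chains *Cd3d* from 22.9 to 90.6, *Cd3e* from 0 to 17.1, and *Cd3g* from 3.02 to 63.4, the coreceptors *Cd4* from 12.1 to 82.5 and *Cd8a* from 0 to 12.2, the T cell factor *Bcl11b* from 5.19 to 26.2, and the receptor constant gene *Trac* from 0.915 to 35.2 normalized counts. In bulk RNA, fewer cells of a type and less RNA per cell cannot be told apart, here and in all comparisons that follow.

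**Figure D4:**
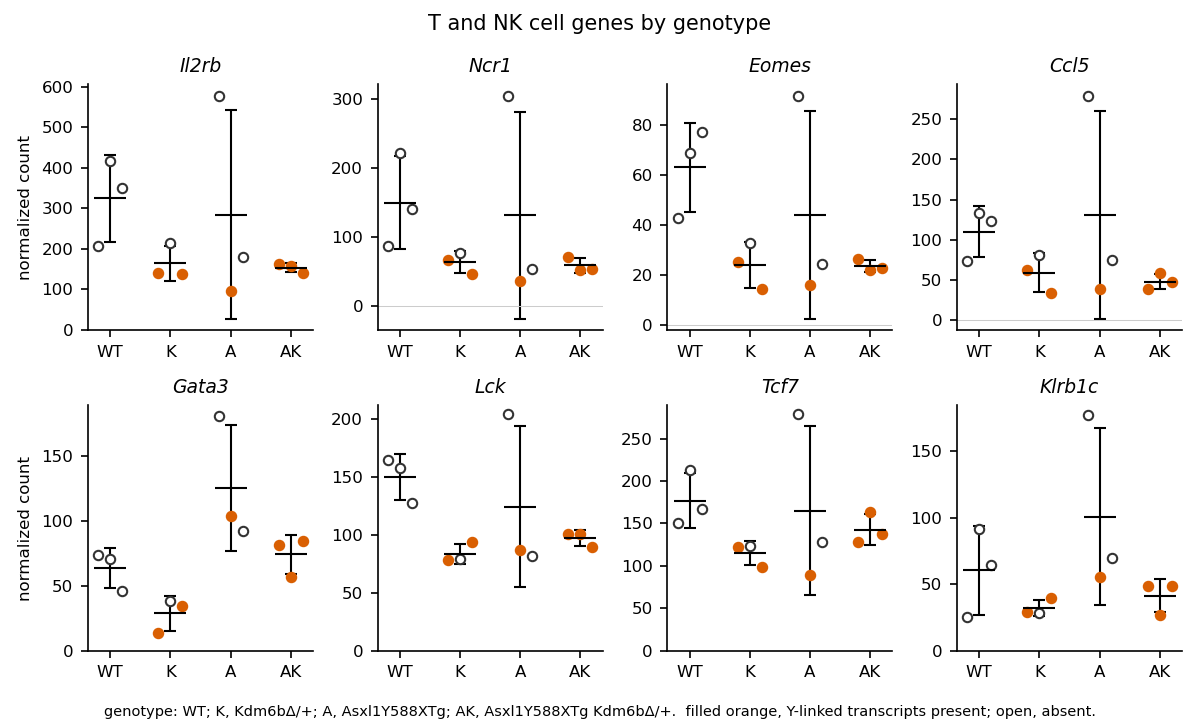
Normalized counts (y axis) of 8 T/NK genes by genotype (x axis; K, Kdm6bΔ/+; A, Asxl1Y588XTg; AK, Asxl1Y588XTg Kdm6bΔ/+). Each point is 1 mouse, filled where Y-linked transcripts are present, and the line and bars give the mean and SD of 3 mice. The highest point of every panel is 1 Asxl1Y588XTg mouse without Y-linked transcripts, and for Il2rb, Ncr1, Eomes, and Lck the Asxl1Y588XTg Kdm6bΔ/+ mice lie below all WT mice.

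To determine whether the lymphoid genes differed between genotypes, each pair was tested by the quasi-likelihood test of edgeR, adjusted after Benjamini and Hochberg over 15825 genes, where a call needed both an adjusted p under 0.05 and a fold change above 1.5. None of the 43 lymphoid genes was called in any pair or in the interaction of the 2 changes, and with 3 mice per group a two-sided exact permutation test of 1 gene cannot give a p below 0.1. The numbers of genes with an unadjusted p under 0.05 in the same edgeR fits, which were counted after the data were seen, and the numbers whose libraries did not overlap are therefore given beside the same shares of all genes. Where nothing else is said, differences are log2 fold changes of the edgeR fit and n is 3 mice per genotype.

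In Kdm6bΔ/+ compared with WT, most T/NK genes had lower means, whereas the B-lymphoid and early lymphoid genes had smaller differences. Of the T/NK genes, 0 of 19 were called (0.0758% of all genes were called higher and 0.0190% lower), 17 of 19 had a lower mean, and their median log2 fold change was −0.84, against −0.0032 for all genes. An unadjusted p under 0.05 with a lower level was found for 10 of 19, against 2.19% of all genes, and the libraries did not overlap, with Kdm6bΔ/+ below, for 8 of 19, against 4.80% of all genes. *Lck* gave −0.84 (standard error 0.22, unadjusted p = 0.00252, adjusted p = 0.738), *Il2rb* gave −0.98 (standard error 0.26, unadjusted p = 0.00306, adjusted p = 0.849), and *Ncr1* gave −1.23 (standard error 0.34, unadjusted p = 0.00341, adjusted p = 0.915). *Eomes* gave −1.37 (standard error 0.41, unadjusted p = 0.00545, adjusted p = 0.9999), with means of 24.1 ± 9.13 against 62.9 ± 17.8 (SD). The other genes with an unadjusted p under 0.05 were *Tcf7* (−0.62), *Gata3* (−1.12), *Ccl5* (−0.90), and *Cd247* (−1.23), and, named after their values were seen, *Cd3g* (−1.53) and *Bcl11b* (−1.74). *Cd4* (0.60, standard error 0.42) and *Cd8a* (0.46, standard error 1.18) had the opposite sign. None of the 43 lay above WT without overlap, where 4.13% of all genes did. Of the B-lymphoid and early lymphoid genes, 0 of 24 were called, 21 of 24 had a lower mean, the median was −0.27, and 2 had an unadjusted p under 0.05 with a lower level, *Cd22* (−1.06, standard error 0.37, unadjusted p = 0.0151, adjusted p = 0.9999) and *Il7r* (−0.64, standard error 0.29, unadjusted p = 0.0453, adjusted p = 0.9999). Leaving out WT library 2 or Kdm6bΔ/+ library 3 lowered the count of T/NK genes from 10 to 6, and a term for Y-linked transcripts lowered it to 1. The shares of all genes in these fits were 3.36%, 1.53%, and 1.76%, in that order.

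In Asxl1Y588XTg compared with WT, the pro-B cell and recombination genes had lower means and *Gata3* a higher one. Of the 24 B-lymphoid and early lymphoid genes, 0 were called (1.58% of all genes were called higher and 0.0316% lower), 20 had a lower mean, and the median was −0.45, against −0.01 for all genes. The lowest values were those of *Rag2* (−1.06, standard error 0.53, unadjusted p = 0.0778, adjusted p = 0.643) and *Rag1* (−1.02, standard error 0.61, unadjusted p = 0.15, adjusted p = 0.742), and *Igll1* followed with −0.95 (standard error 0.63). *Rag2* had 36.6 ± 27.8 normalized counts in Asxl1Y588XTg and 76.1 ± 33.97 in WT (SD). None of the 24 reached an unadjusted p under 0.05 with a lower level, where 2.05% of all genes did, and 2 of 24, *Cd24a* and *Ikzf1*, lay below WT without overlap, against 5.21% of all genes. *Cd24a* gave −0.16 (standard error 0.09) and *Ikzf1* −0.13 (standard error 0.07). The count at an unadjusted p under 0.05 rested on Asxl1Y588XTg library 1. Without it 13 of 24 were lower at that p, against 1.54% of all genes in the same fit. The medians were then −1.21 for the B-lymphoid and −1.27 for the early lymphoid genes. Of the T/NK genes, 0 of 19 were called, 11 of 19 had a higher mean, and the median was 0.26. An unadjusted p under 0.05 with a higher level was found for 2 of 19, against 7.30% of all genes, namely *Gata3* (0.97, standard error 0.32, unadjusted p = 0.0135, adjusted p = 0.273) and *Trac* (2.35, standard error 0.80, unadjusted p = 0.0147, adjusted p = 0.29), and 3 of 19, these genes and *Cd8a*, lay above WT without overlap, against 10.5% of all genes. *Trac* and *Cd8a* had at most 35.2 and 12.2 normalized counts and were named after their values were seen. Without Asxl1Y588XTg library 1 the median of the T/NK genes was −0.72.

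**Figure D5:**
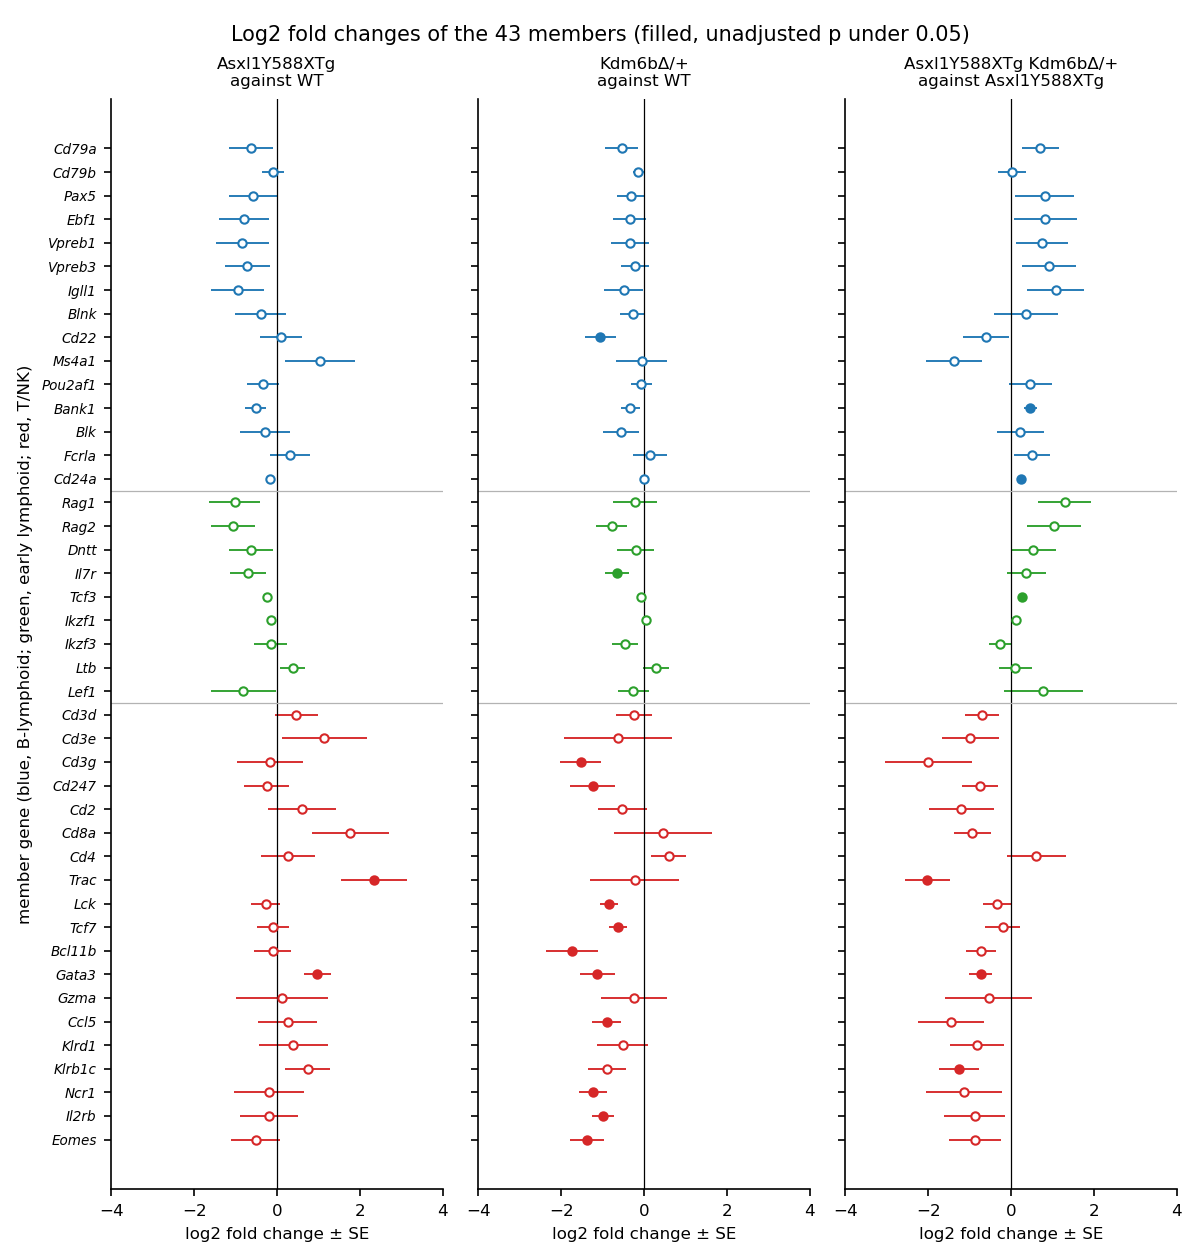
Log2 fold changes (x axis) with standard errors of the 43 lymphoid genes (y axis; blue, B-lymphoid; green, early lymphoid; red, T/NK) in 3 comparisons from edgeR's quasi-likelihood fits. Filled points have an unadjusted p under 0.05, and none has an adjusted p under 0.05. In Kdm6bΔ/+ against WT, 10 T/NK points are filled and lie left of 0, and in the panels with Asxl1Y588XTg the B-lymphoid and early lymphoid points lie mostly left of 0 against WT and mostly right of 0 in the last panel.

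To examine how the *Kdm6b* deletion bears on the Asxl1Y588XTg background, Asxl1Y588XTg Kdm6bΔ/+ was compared with Asxl1Y588XTg. B-lymphoid and early lymphoid genes had higher means and T/NK genes lower ones. Of the former, 0 of 24 were called (0.145% of all genes were called higher and 1.59% lower), 21 had a higher mean, and the median was 0.47, against −0.0043 for all genes. With an unadjusted p under 0.05 and a higher level there were 3 of 24, against 5.64% of all genes, namely *Tcf3* (0.26, standard error 0.08, unadjusted p = 0.00715, adjusted p = 0.133), *Cd24a* (0.25, standard error 0.08, unadjusted p = 0.0118, adjusted p = 0.17), and *Bank1* (0.47, standard error 0.17, unadjusted p = 0.0172, adjusted p = 0.2), which also did not overlap, as 7.11% of all genes did in that direction. *Rag1* gave 1.30 (standard error 0.64), *Igll1* 1.08 (standard error 0.70), and *Rag2* 1.03 (standard error 0.65), each with overlapping libraries, whereas *Ms4a1* (−1.37, standard error 0.68) and *Cd22* (−0.60, standard error 0.56) had the opposite sign. Without Asxl1Y588XTg library 1 the count was 12 of 24, and *Cd79a* was called at 1.29 on the log2 scale, with a standard error of 0.22 and an adjusted p of 0.0246 by the same edgeR test. In that fit 56 of all genes were called higher, and the share of all genes higher at an unadjusted p under 0.05 is not given here. Of the T/NK genes, 0 of 19 were called, 18 of 19 had a lower mean, and the median was −0.87. An unadjusted p under 0.05 with a lower level was found for 3 of 19, against 9.81% of all genes, namely *Gata3* (−0.74, standard error 0.28, unadjusted p = 0.0253, adjusted p = 0.242), *Klrb1c* (−1.26, standard error 0.48, unadjusted p = 0.0336, adjusted p = 0.273), and *Trac* (−2.02, standard error 0.54, unadjusted p = 0.0034, adjusted p = 0.0921), and 5 of 19, these genes with *Cd8a* and *Bcl11b*, did not overlap, against 14.1% of all genes. *Klrb1c* had 41.4 ± 12.5 normalized counts in Asxl1Y588XTg Kdm6bΔ/+ and 101 ± 66.5 in Asxl1Y588XTg (SD). The T/NK count was 1 without Asxl1Y588XTg library 1, against 7.94% of all genes, and 9 without Asxl1Y588XTg library 2, against 9.58%. With a term for Y-linked transcripts the T/NK median was −0.20, and both the T/NK count and the B-lymphoid and early lymphoid count were 1.

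In Asxl1Y588XTg Kdm6bΔ/+ compared with WT, the B-lymphoid and early lymphoid genes had a median difference near 0, and NK genes had lower means. Of the 24 B-lymphoid and early lymphoid genes, 0 were called (0.145% of all genes were called higher and 0.0695% lower), 11 had a higher and 13 a lower mean, the median was −0.02, against −0.00033 for all genes, and 0 had an unadjusted p under 0.05 in either direction, against 3.73% of all genes for a higher level. *Cd24a* was the 1 gene that lay above WT without overlap, against 6.68% of all genes. *Pax5* gave 0.24 (standard error 0.40), *Ebf1* 0.03 (standard error 0.53), *Rag1* 0.28 (standard error 0.44), and *Dntt* −0.09 (standard error 0.31). These standard errors allow changes of either sign, so that equal levels are not shown. Of the T/NK genes, 0 of 19 were called, 14 had a lower mean, and the median was −0.52. With an unadjusted p under 0.05 and a lower level there were 6 of 19, against 3.06% of all genes, and 7 of 19 lay below WT without overlap, against 6.87%. *Il2rb* gave −1.07 (standard error 0.23, unadjusted p = 0.000949, adjusted p = 0.223), *Ncr1* gave −1.31 (standard error 0.33, unadjusted p = 0.00231, adjusted p = 0.304), and *Eomes* gave −1.38 (standard error 0.34, unadjusted p = 0.00225, adjusted p = 0.304). *Il2rb* had 153 ± 11.7 normalized counts in Asxl1Y588XTg Kdm6bΔ/+ and 324 ± 107 in WT (SD). The other 3 were *Ccl5* (−1.20), *Lck* (−0.61), and *Cd3g* (−2.16). Without WT library 1, the count was 10 of 19, against 2.77% of all genes. *Ncr1* (−1.59, adjusted p = 0.0400) and *Il2rb* (−1.31, adjusted p = 0.00584) were then called by the same edgeR test, which called 15 of all genes lower. With a term for Y-linked transcripts the T/NK count was 0 of 19, the median was 0.28, and the values were 0.20 for *Il2rb*, 0.0043 for *Ncr1*, and 0.28 for *Ccl5*.

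In Asxl1Y588XTg Kdm6bΔ/+ compared with Kdm6bΔ/+, 0 of 43 genes were called (0.0569% of all genes were called higher and 0.0379% lower). Of the B-lymphoid and early lymphoid genes 22 of 24 had a higher mean, with a median of 0.25, and 1 had an unadjusted p under 0.05 with a higher level, against 6.54% of all genes. This was *Cd79a* (0.60, standard error 0.22, unadjusted p = 0.0193, adjusted p = 0.317). *Blk*, named after its values were seen, was the 1 of these 24 whose libraries lay above without overlap, against 9.32% of all genes. Of the T/NK genes 12 of 19 had a higher mean, with a median of 0.22, 1 of 19, *Gata3*, had an unadjusted p under 0.05, and 3 of 19, *Gata3*, *Tcf7*, and *Bcl11b*, lay above without overlap. *Gata3* gave 1.34 (standard error 0.34, unadjusted p = 0.00167, adjusted p = 0.176), with 74.5 ± 15.2 normalized counts in Asxl1Y588XTg Kdm6bΔ/+ and 28.9 ± 13.3 in Kdm6bΔ/+ (SD). None of the 43 was lower at an unadjusted p under 0.05 or lay below without overlap, against 5.67% and 9.57% of all genes.

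With edgeR and all 12 libraries, the interaction was fitted, which is the *Kdm6b* deletion's effect in the presence of the transgene less its effect in its absence. It was positive for 22 of 24 B-lymphoid and early lymphoid genes, with a median of 0.75, against −0.02 for all genes, and 0 of 24 were called (0% of all genes were called positive and 0.0126% negative). With an unadjusted p under 0.05 and a positive sign there were 3 of 24, against 2.15% of all genes, namely *Rag2* (1.80, standard error 0.76, unadjusted p = 0.0329, adjusted p = 0.688), *Bank1* (0.78, standard error 0.30, unadjusted p = 0.0191, adjusted p = 0.638), and *Tcf3* (0.31, standard error 0.14, unadjusted p = 0.0496, adjusted p = 0.725). *Rag1* gave 1.496 (standard error 0.87) and *Igll1* 1.54 (standard error 0.89). The count depended on single libraries, with 9 of 24 without Asxl1Y588XTg library 1, 0 without Asxl1Y588XTg library 3, and 1 without WT library 1 or without Kdm6bΔ/+ library 1. The shares of all genes with a positive sign in those fits are not given here. Of the T/NK genes, 8 of 19 had a positive and 11 a negative interaction, with a median of −0.32 and 0 of 19 with an unadjusted p under 0.05, against 4.72% of all genes for a negative sign. Without single libraries that median ran from −0.53 to 0.96, the latter without Asxl1Y588XTg library 1. The Kdm6bΔ/+ effect on T/NK genes was thus not shown to differ between the backgrounds.

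Most T/NK genes had lower counts in libraries with Y-linked transcripts, which were unevenly spread over the genotypes. Within Asxl1Y588XTg, the library with Y-linked transcripts lay below both others for 14 of 19 T/NK genes, against 29.1% of all genes, and above both for 1, against 35.1%. Within Kdm6bΔ/+, both libraries with them lay below the third for 10 of 19 T/NK genes, against 32.2% of all genes, and above it for 3, against 31.0%. Of the 15 B-lymphoid genes, 3 lay below and 1 above within Asxl1Y588XTg, and 4 lay below and 10 above within Kdm6bΔ/+. A Y-linked transcript term, a later addition to the edgeR fit of all 12 libraries with the genotypes, had a median of −0.95 over the T/NK genes, and 17 of 19 were lower with them. Beside the genotypes, the term rests on Asxl1Y588XTg and Kdm6bΔ/+, which alone hold libraries of both kinds. In Asxl1Y588XTg it sets library 2 (T/NK level −0.62) against library 3 (0.07) and library 1, which stood apart (1.53). The term was not refitted without library 1. With an unadjusted p under 0.05 and a lower level there were 4 of 19, against 1.48% of all genes, 0 of 19 had a higher level at that p, against 0.929%, and 0 of 19 were called (0.0126% of all genes were called lower). These were *Ccl5* (−1.49, unadjusted p = 0.0165), *Eomes* (−1.28, unadjusted p = 0.0298), *Il2rb* (−1.28, unadjusted p = 0.0313), and *Cd3g* (−1.84, unadjusted p = 0.0441). *Il2rb* lay between 95.6 and 161 normalized counts in the 6 libraries with Y-linked transcripts and between 178 and 577 in the 6 without, and *Eomes* lay between 14.5 and 26.6 and between 24.3 and 91.5. *Il2rb* did not overlap between these sets of libraries, and *Eomes* overlapped. *Ccl5* did not overlap either, with at most 61.6 with Y-linked transcripts and at least 73.2 without, nor did *Cd3g*, by a small margin. The share of all genes without overlap between these sets is not given here. All 3 WT libraries lack these transcripts and all 3 Asxl1Y588XTg Kdm6bΔ/+ libraries have them, so the sets also differ in genotype. Of the B-lymphoid genes, *Cd22* had a Y term of −1.37 (unadjusted p = 0.00767), and the median over the 15 was −0.09.

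With this term in the fit, the median of the T/NK genes in Kdm6bΔ/+ against WT was −0.17, with 1 of 19 lower at an unadjusted p under 0.05, and in Asxl1Y588XTg Kdm6bΔ/+ against WT it was 0.28, with 0 of 19. Among libraries without Y-linked transcripts, Kdm6bΔ/+ library 2 could be compared with the 3 WT libraries and lay below all 3 for 8 of 19 T/NK, 7 of 15 B-lymphoid, and 4 of 9 early lymphoid genes, against 17.9% of all genes, and above all 3 for 1 gene of each class, against 16.4%. No Asxl1Y588XTg Kdm6bΔ/+ library lacks Y-linked transcripts and no WT library has them, so that in this comparison genotype and Y-linked transcripts cannot be told apart. Without Y-linked transcripts, both Asxl1Y588XTg libraries lay above all 3 WT libraries for 4 of 19 T/NK genes, against 14.0% of all genes, and below for 0, against 9.78%. With Y-linked transcripts, the 3 Asxl1Y588XTg Kdm6bΔ/+ libraries all lay above the 1 Asxl1Y588XTg library for 13 of 15 B-lymphoid, 6 of 9 early lymphoid, and 10 of 19 T/NK genes, against 23.8% of all genes, and below it for 6 T/NK genes, against 32.6%. The differences between these strata were not tested.

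Other lymphoid genes were listed for this work beside the 43. Of 18 other B cell genes tested, which include *Syk* and *Btk*, 0 were called in any pair or in the interaction, with medians between −0.04 and 0.04. Of 26 other T and NK genes tested, 0 were called, and in Kdm6bΔ/+ against WT 22 of 26 had a lower mean, 7 of 26 had an unadjusted p under 0.05 with a lower level, against 2.19% of all genes, and 11 of 26 lay below WT without overlap, against 4.80%. *Klrk1*, the NK receptor NKG2D, had 136, 194, and 128 in WT, 56.5, 76.3, and 78.9 in Kdm6bΔ/+, 217, 44.3, and 75.0 in Asxl1Y588XTg, and 76.0, 73.0, and 79.4 in Asxl1Y588XTg Kdm6bΔ/+, and gave −1.11 (standard error 0.25, unadjusted p = 0.000896, adjusted p = 0.457) in Kdm6bΔ/+ against WT. Of 23 other early lymphoid genes, 0 were called, and in Asxl1Y588XTg Kdm6bΔ/+ against Asxl1Y588XTg 5 of 23 had an unadjusted p under 0.05 with a lower level, against 9.81% of all genes, 3 of 23 with a higher level, against 5.64%, and 5 of 23 lay below without overlap, against 14.1%. The smallest adjusted p among them was that of *Jak3*, a kinase of cytokine receptors, which was named after its values were seen and gave −0.58 (standard error 0.11, unadjusted p = 0.000348, adjusted p = 0.0306), short of the 1.5-fold limit.

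Markers of other cell types are given beside these results. The summed normalized count of 8 plasma cell markers lay between 18814 and 27996 in WT and between 28018 and 49188 in Kdm6bΔ/+, where 1 of 6 tested, *Jchain*, was called higher, and between 29000.4 and 33995 in Asxl1Y588XTg Kdm6bΔ/+, where 2 of 6, *Jchain* and *Igkc*, were called higher than in WT and 3 of 6, *Ighm* (−1.12, standard error 0.44, unadjusted p = 0.0428, adjusted p = 0.722), *Xbp1* (−0.21), and *Prdm1* (−0.14), had lower means. In Asxl1Y588XTg the sum lay between 18245 and 39843 and overlapped the ranges of the other genotypes. The highest sum, 49188 in Kdm6bΔ/+ library 2, held 22170 counts of *Ighm* and 19704 of *Igkc*. Of the 8 plasma cell markers, *Tnfrsf17* and *Mzb1* were at 0 counts in WT library 1. The sum of 6 megakaryocyte markers lay between 4372 and 11827 in Asxl1Y588XTg and between 1379 and 2643 in WT, with 0 of 5 tested called in that pair and 1 of 5, *Ppbp*, called higher in Asxl1Y588XTg Kdm6bΔ/+ than in WT, and none was at 0. Of 7 markers of LK progenitors, *Gata2* was called higher in Asxl1Y588XTg than in WT, where 4 of 7 had lower means and the median was −0.095. *Gata2* was called lower in Asxl1Y588XTg Kdm6bΔ/+ than in Asxl1Y588XTg, where 4 of 7 had lower means and the median was −0.034. The sum of 8 erythroid markers lay between 7866 and 11465 in Asxl1Y588XTg Kdm6bΔ/+ and between 9470.1 and 15653 in WT, with 2 of 8, *Hbb-bt* and *Alas2*, called lower. The sum of the 6 antigens of the lineage depletion overlapped between all genotypes, from 24836 to 33004, and 0 of 6 were called in any pair. *Cd5*, a small part of that sum, had 25.1 ± 6.77 normalized counts in Kdm6bΔ/+ and 49.8 ± 20.6 in WT (SD). In that pair 1 of 6 was lower at an unadjusted p under 0.05 by edgeR, against 2.19% of all genes. The part of these cell types in the results on lymphoid genes was not tested.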

How the data were processed

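Per the labels and the methods of the study, RNA from magnetically selected LK cells of individual mice was sequenced. The labels and the methods name different library kits and sequencers, so the kit is uncertain. The authors deposited raw read counts per gene, which were used as deposited. Which annotation and strand setting the counting had is not given in the sources used here. Groups came from the genotype labels, with 3 mice each. Each pair of genotypes was fitted on its own 6 libraries with edgeR 4.0.16 in R 4.3.3 (filterByExpr, TMM scaling, robust quasi-likelihood test, Benjamini-Hochberg adjustment over 15825 genes), and the interaction on all 12. A call needed an adjusted p under 0.05 and a fold above 1.5. The scripts were tested on simulated counts. Total counts ran from 14451522 to 23482563 per library, so that counting error is large for genes with few counts. The p-values set a difference between groups against the spread between mice, which edgeR estimates with information from the other genes in the fit. The genes and lists described were chosen with earlier results of these data known, and genes were named by their level and by the tests in each class, other names being marked. Alternatives were DESeq2 1.42.0, RLE scaling, no filter, a mean count of at least 50, all 12 libraries in 1 fit, a replicate block, a term for Y-linked transcripts (added later), and leaving out each library. Replicate numbers were not taken as pairs, since same-numbered libraries did not deviate together.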

Additional observations from a re-analysis of the deposited data

How the results depend on the processing

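None of the 43 genes was called in the tests reported, and calls appeared under some alternatives. Without the expression filter, 4 genes were called lower in Asxl1Y588XTg Kdm6bΔ/+ against Asxl1Y588XTg, 2 lower in Kdm6bΔ/+ against WT, 3 lower in Asxl1Y588XTg Kdm6bΔ/+ against WT, 2 higher against Kdm6bΔ/+, and 7 positive in the interaction. Over all genes, the same fits called 667 lower, 27 lower, 51 lower, 181 higher, and 79 positive, in that order. DESeq2 called 2 lower in Asxl1Y588XTg Kdm6bΔ/+ against WT (*Ncr1* and *Il2rb*) and 1 higher against Kdm6bΔ/+ (*Gata3*). Over all genes, DESeq2 called 40 lower in the former pair and 87 higher in the latter.

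In Asxl1Y588XTg against WT, leaving out single libraries moved the medians from −1.21 to −0.0773 (B-lymphoid), from −1.27 to −0.32 (early lymphoid), and from −0.72 to 0.68 (T/NK), and the count of B-lymphoid and early lymphoid genes lower at an unadjusted p under 0.05 from 0 to 13. That count was 5 without the filter, 2 with all 12 libraries in 1 fit, and 9 with the replicate block. Of all genes, 1.24% to 4.98% were lower at that p without single libraries. The shares were 2.37% without the filter, 3.06% with all 12 libraries, and 1.67% with the replicate block. In Asxl1Y588XTg Kdm6bΔ/+ against Asxl1Y588XTg, leaving out libraries gave 0 to 1 genes called higher, medians from 0.26 to 1.29 (B-lymphoid) and from 0.22 to 1.02 (early lymphoid), 1 to 9 T/NK genes lower, and 2 to 12 B-lymphoid and early lymphoid genes higher. The T/NK median was −0.20 with the Y term, the count of T/NK genes lower was 8 without the filter, 5 with all 12 libraries, and 1 with the Y term, and the count of B-lymphoid and early lymphoid genes higher was 5 with DESeq2 and 1 with the Y term. Of all genes, 7.37% to 9.58% were lower at that p without single libraries. The shares were 7.18% without the filter, 8.35% with all 12 libraries, and 5.60% with the Y term. In Kdm6bΔ/+ against WT, 6 to 12 T/NK genes were lower without single libraries, 6 with a mean count of at least 50, 5 with all 12 libraries, and 1 with the Y term, where the median was −0.17. In Asxl1Y588XTg Kdm6bΔ/+ against WT, 0 to 2 genes were called lower and 6 to 10 T/NK genes were lower without single libraries, 3 with all 12 libraries, and 0 with the Y term, where the median was 0.28. Of all genes, 1.58% to 6.94% were lower without single libraries, 4.62% with all 12 libraries, and 2.12% with the Y term. In the interaction, leaving out libraries moved the medians from 0.42 to 1.55 (B-lymphoid), from 0.35 to 1.36 (early lymphoid), and from −0.53 to 0.96 (T/NK) and the count of B-lymphoid and early lymphoid genes higher from 0 to 9, and it was 16 without the filter. With the Y term the sign reversed for *Ccl5* in Kdm6bΔ/+ against WT (0.0366) and for *Ccl5* (0.28), *Ncr1* (0.0043), and *Il2rb* (0.20) in Asxl1Y588XTg Kdm6bΔ/+ against WT, and the cause was not tested. The replicate numbers share no stated mouse, litter, or day, and of 18 same-numbered pairs 0 had a correlation of deviations over 0.1 (median −0.04), and the block called none of the 43. Over all genes, Asxl1Y588XTg against WT gave 250 higher and 5 lower calls as reported, 456 and 17 with DESeq2, 591 and 28 without the filter, and 96 and 5 with the replicate block, and Asxl1Y588XTg Kdm6bΔ/+ against Asxl1Y588XTg gave 23 and 252, 55 and 391, 145 and 667, and 13 and 58 in the same order.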

Other observations

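Of 6 tested markers of plasma cells, *Jchain* and *Igkc* were called higher in Asxl1Y588XTg Kdm6bΔ/+ than in WT, *Sdc1* had a higher mean (0.44), and the other 3 had lower means. *Jchain*, which joins IgA and IgM polymers, had 2328, 1750.0, and 1867 normalized counts in WT, 3829, 3289, and 3182 in Kdm6bΔ/+, 598, 1653, and 3603 in Asxl1Y588XTg, and 6461, 6721, and 5053 in Asxl1Y588XTg Kdm6bΔ/+. By edgeR's quasi-likelihood test it was higher than in WT in Kdm6bΔ/+, with 0.79 (standard error 0.11, unadjusted p = 1.53e-05, adjusted p = 0.0202), and in Asxl1Y588XTg Kdm6bΔ/+, with 1.63 (standard error 0.13, unadjusted p = 1.90e-07, adjusted p = 0.000336). The libraries of WT and of these genotypes did not overlap, whereas the Asxl1Y588XTg libraries spanned a wide range. *Igkc*, the constant region of the κ light chain, gave 1.04 (standard error 0.10, unadjusted p = 1.24e-06, adjusted p = 0.00178) in Asxl1Y588XTg Kdm6bΔ/+ against WT by the same test. All genes of this list that are given here with values were named after those were seen. *Tnfrsf17* and *Mzb1*, other genes of plasma cells, had mean normalized counts of 6.39 and 6.29 and were not tested. *Ighm*, the constant region of the μ heavy chain, had 4709.9, 13216, and 11533 normalized counts in WT and 3702, 3329.7, and 6346 in Asxl1Y588XTg Kdm6bΔ/+ and gave −1.12 (standard error 0.44, unadjusted p = 0.0428, adjusted p = 0.722) by the same edgeR test. *Xbp1* and *Prdm1*, transcription factors of plasma cells, gave −0.21 (standard error 0.10) and −0.14 (standard error 0.43).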
